A study of Mus musculus with 2 samples.

Results

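The genes described are Atp1b1, Atp1b2 and Atp1b3, which encode the beta subunits of the sodium pump, 3 of 21884 protein-coding genes of unique symbol. They were selected on measured values: Atp1b1 stood among the genes with most distal peaks in replicate 2, and the other beta subunit genes were added as its family. The number of distal peaks at Atp1b1 is therefore given as a description, with no test. Open chromatin had been mapped by DNase-seq, in which the enzyme DNase I cuts accessible DNA in nuclei and the cut ends are sequenced. The study has 1 group of 2 libraries from the left cortex of B6CASTF1/J mice, an F1 hybrid between C57BL/6 and the wild-derived strain CAST, all male and 18 to 20 months old. Both libraries carry the same donor entry, so the spread between them may be technical. The reference is built from C57BL/6J, and alleles were not separated here.

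The sodium pump uses ATP to carry sodium out of the cell and potassium in. It restores the ion gradients that neurons spend when they fire and that glia use to take up transmitters. A catalytic alpha subunit moves the ions, and a beta subunit is needed for it to fold and reach the plasma membrane. The beta 1 subunit is widely expressed, the beta 2 subunit is also known as an adhesion molecule on glia, and the beta 3 subunit is found in many tissues. The genes of the alpha subunits were not analysed here.

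Each gene was described over its gene body with 10 kb on each side. A promoter peak lies within 1 kb of an annotated transcription start site (TSS), and a distal peak lies more than 1 kb from every such site. Peak signal is a single value that the authors gave each peak, on a scale that is not stated. A footprint is a short stretch that the authors called as protected from cutting, where a bound protein can shield DNA. In bulk tissue, fewer open cells and weaker opening in each cell cannot be told apart.

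Replicate 2 had the longer lists throughout, with 111105 peaks against 73221 in replicate 1 and 385637 footprints against 264450. Its peaks had the lower median signal, 0.894 against 1.24. In each shorter list the signals followed a fixed step, 0.006598 in replicate 1 and 0.006673 in replicate 2. All signals below 500 steps, 83.3% and 93.2% of the peaks, were whole multiples of it to within 0.05 steps. Whether the step follows sequencing depth was not tested, and depth was not analysed here beyond these values. The labelled tissue was set against promoter peaks in the shorter lists, which 60.7% of all protein-coding genes had in replicate 1 and 61.2% in replicate 2. All 5 cortex markers had one in both libraries, and none of 5 hindbrain and spinal cord markers did. Of 6 neuron markers 5 had a promoter peak in each library, of 5 oligodendrocyte markers 4, of 6 astrocyte markers 2 and 3, of 4 endothelial markers 1 and 0, and of 5 microglial markers 0. Among the astrocyte markers, Aldoc had a promoter peak in both libraries (2.65 and 2.57). Aqp4, Gja1 and Slc1a3 had a peak in a single library, and Gfap and Aldh1l1 in neither. In the longer lists the counts were 4 and 3 for astrocytes, 0 and 2 for microglia, 2 and 1 for endothelium, 6 and 6 for neurons and 1 and 0 for hindbrain and spinal cord.

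All 3 beta subunit genes had a promoter peak in both libraries, where 60.7% of all protein-coding genes had one in replicate 1, 61.2% in replicate 2 and 58.7% in both. The signal of the strongest promoter peak differed between the genes. Atp1b3 had 9.68 in replicate 1 and 5.83 in replicate 2 (7.76 ± 2.72, SD, n = 2). Atp1b1 had 3.19 and 2.54 (2.86 ± 0.456, SD, n = 2). Atp1b2 had 1.91 and 1.78 (1.84 ± 0.0978, SD, n = 2). The order Atp1b3, Atp1b1, Atp1b2 held in each library, and the values of neighbouring genes in that order did not overlap. Among genes with a promoter peak the median signal was 3.82 in replicate 1 and 2.88 in replicate 2, so Atp1b3 lay above it and the other genes below it in both libraries. Atp1b3 stood above 97.6% and 83.7% of these genes, Atp1b1 above 41.3% and 44.2%, and Atp1b2 above 23.8% and 30.4%.

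**Figure D1:**
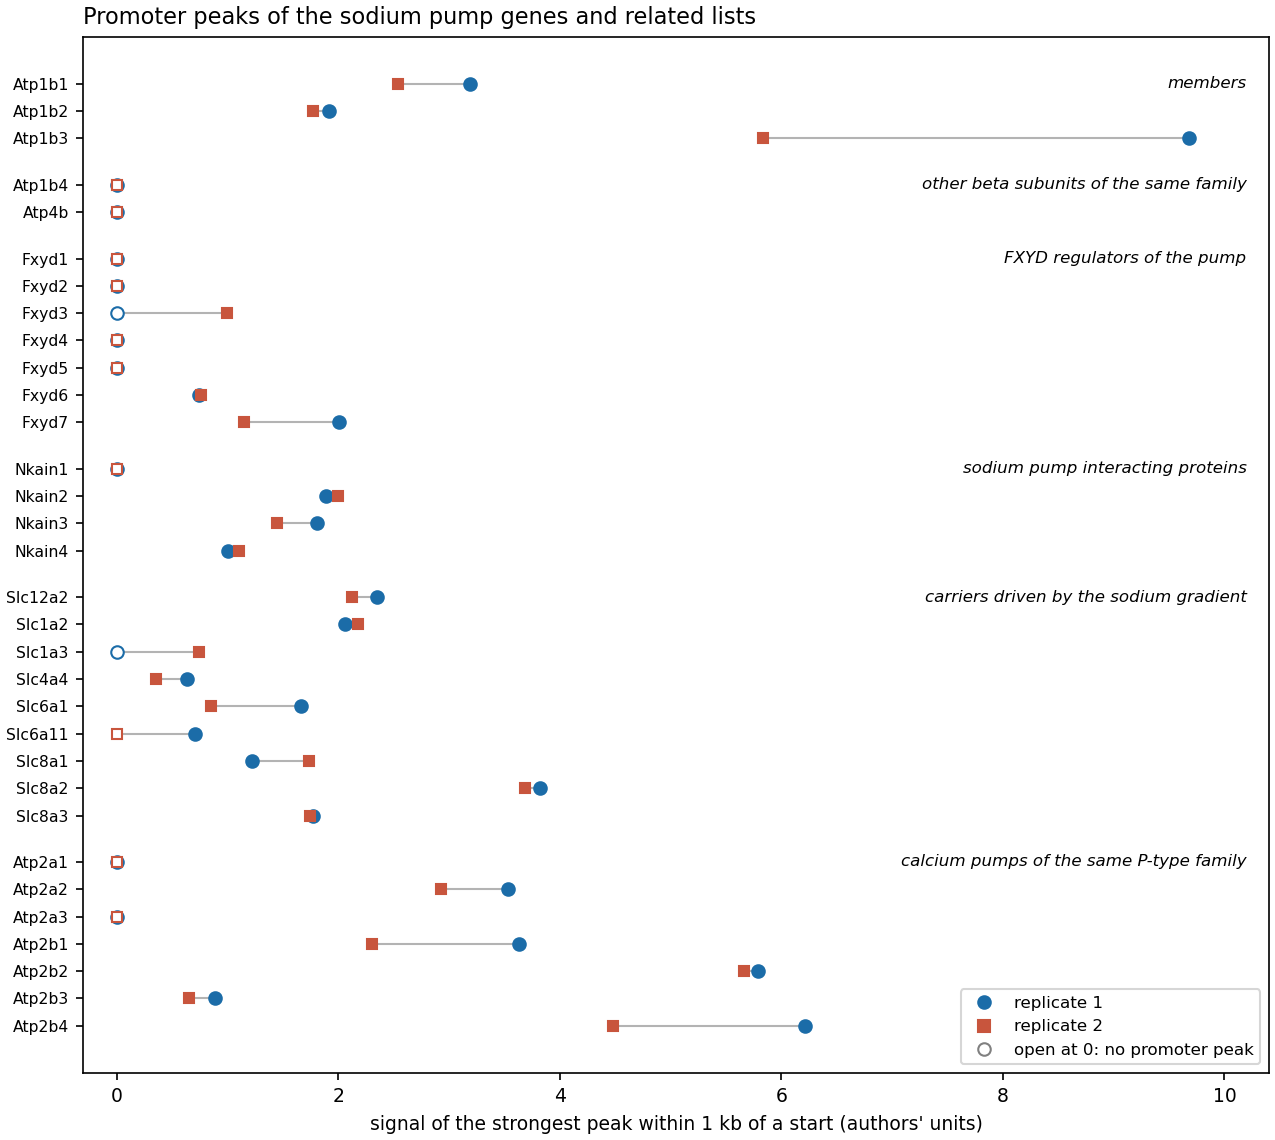
Signal of the strongest peak within 1 kb of a start (x axis, authors' units) for each gene (rows) in replicate 1 (circles) and replicate 2 (squares), with open symbols at 0 where the shorter list held no promoter peak. Atp1b3, at 9.68 and 5.83, has the highest value drawn for each replicate, and Atp1b4 and Atp4b have no promoter peak.

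Atp1b3 had the simplest map of the family. The gene spans chr9:96332655-96364442 on the minus strand in build mm10, with 7 exons over 31788 bp (ENSMUSG00000032412.8). Its strongest peak, at chr9:96364381-96364580, covered the TSS and reached into the 5′ untranslated part of exon 1. That peak stood above 99.6% of all peaks of replicate 1 and 98.1% of replicate 2. A weaker peak in intron 1 at chr9:96363621-96363880, with signals of 1.82 and 1.35 (1.59 ± 0.330, SD, n = 2), covered the start of a curated RefSeq transcript at position 96363715. The same position was open in both libraries, at a signal well under that of the main start.

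The Atp1b3 promoter is shown because footprints of both libraries fall on repeated GC-rich elements in it. The sequence runs 5′ to 3′ on the minus strand at chr9:96364443-96364600 (GRCm38.p6), just before the TSS, and capitals mark bases inside footprints of both libraries.
Atp1b3 promoter: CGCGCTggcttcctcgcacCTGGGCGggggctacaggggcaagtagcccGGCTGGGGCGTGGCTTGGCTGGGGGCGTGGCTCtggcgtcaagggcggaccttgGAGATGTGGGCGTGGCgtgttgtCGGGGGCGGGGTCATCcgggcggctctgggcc
Footprints of both libraries covered 78 of its 158 bases. The letters GGGCGTGG, a GC box variant of the kind bound by KLF zinc finger proteins and searched for after the sequence had been seen, occur 3 times. All 3 lie wholly inside footprints of both libraries, the pair nearest each other in a single footprint 33 bp wide in replicate 1 and 34 bp wide in replicate 2. Of 32817 promoter windows of 300 bases in the RefSeq table, 5.33% hold this motif on either strand. Among peaks of replicate 1 within 1 kb of a start, 7.32% hold it in 300 bases around the midpoint. The classical GC box GGGCGG, bound by SP1 and its relatives, occurs 4 times in the sequence shown, with 1 copy wholly inside footprints of both libraries. At least 1 GC box stands in 35.6% of all promoter windows and in 57.5% of these peaks.

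A single distal peak marked the Atp1b3 window, in intron 1 at chr9:96350121-96350260, 14182 bp downstream of the TSS. Its signal was 1.43 in replicate 1 and 1.59 in replicate 2 (1.51 ± 0.111, SD, n = 2), so the libraries were close to each other there. It lies 53 bp from the start of a predicted RefSeq transcript. The sequence is shown for the footprint in it, 38 bp wide in each library and the widest in the 3 gene windows, again on the minus strand with capitals for bases in footprints of both libraries.
Atp1b3 intron 1, chr9:96350121-96350280: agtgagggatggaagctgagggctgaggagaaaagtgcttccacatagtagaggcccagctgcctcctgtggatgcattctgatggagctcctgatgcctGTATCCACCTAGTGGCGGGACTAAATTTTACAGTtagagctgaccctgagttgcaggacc
The 34 bases common to both footprints hold TCCACCTAGTGG, a match to the core motif of CTCF with at most 1 mismatch. CTCF is a zinc finger protein that binds insulators and the ends of chromatin loops. All 12 bases of the match lie in the footprint of each library. The motif was searched for after the sequence had been seen, and a match this loose stood in 29.9% of distal peaks of replicate 1, over 300 bases around each midpoint. A match of letters does not show which protein was bound.

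Atp1b2 is the most compact of the genes and had peaks at its start, its 3′ end and in both flanks. It spans chr11:69599736-69605942 on the minus strand with 7 exons over 6207 bp (ENSMUSG00000041329.13). Its distances were counted from the annotated TSS at position 69605829, inside that span. The start of its curated RefSeq transcript is at 69605960, outside it. The TSS peak at chr11:69605781-69606040 was the weakest of the 3 main promoter peaks. The promoter just outside the annotated exons is printed on the minus strand, chr11:69605979-69606060, because it holds both a TATA box and a GC box.
Atp1b2 promoter: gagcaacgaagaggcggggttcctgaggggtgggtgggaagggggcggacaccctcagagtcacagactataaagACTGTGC
The TATA box TATAAA, the element that places the start of transcription in some promoters, lies at bases 69 to 74 and outside the footprints of both libraries. The motif stands in 13.6% of all promoter windows. Among peaks of replicate 1 within 1 kb of a start, 4.50% hold it in 300 bases around the midpoint. The GC box at bases 43 to 48 also lay outside them, and the only shared footprint in the sequence covers the 7 bases at its end. Atp1b2 has no entry in the RefSeq promoter table, so its sequence was read from the genome.

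Distal peaks in the Atp1b2 window numbered 3 in replicate 1 and 4 in replicate 2, or 11.4 and 15.3 per 100 kb, above 96.6% and 97.8% of all genes. All 3 from replicate 1 had a partner in replicate 2. A peak over the 3′ untranslated part of exon 7, at chr11:69600201-69600403, had signals of 1.28 and 1.09 (1.18 ± 0.136, SD, n = 2). A downstream peak at chr11:69592381-69592518 had 0.950 and 1.05 (1.00 ± 0.0737, SD, n = 2). These signals differed little between the libraries. The intergenic peak at chr11:69614061-69614240, 8232 bp upstream of the TSS, differed most, with 2.64 in replicate 1 and 1.04 in replicate 2 (1.84 ± 1.13, SD, n = 2). In replicate 1 this upstream peak was stronger than the promoter peak of the gene, and in replicate 2 it was weaker.

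The upstream element is printed on the minus strand because it carries the footprint with most bases common to both libraries in the Atp1b2 window, and capitals again mark bases in footprints of both libraries.
Atp1b2 upstream, chr11:69614061-69614240: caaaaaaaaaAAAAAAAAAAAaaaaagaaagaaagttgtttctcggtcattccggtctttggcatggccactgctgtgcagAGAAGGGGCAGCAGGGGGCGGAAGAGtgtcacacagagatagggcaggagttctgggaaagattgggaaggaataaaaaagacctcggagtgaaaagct
The wide footprint spans 28 bp in replicate 1 and 26 bp in replicate 2. It holds GCAGCAGGGGGC, a CTCF core match with at most 1 mismatch, and a GC box that overlaps it. Both lie wholly inside the footprint of each library. Over 300 bases around the midpoint, 29.9% of distal peaks of replicate 1 hold so loose a CTCF match and 12.5% a GC box. The CTCF motif was again searched for after the sequence had been seen. The other shared footprint, 11 bp in common, falls on a run of A.

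Atp1b1 had the largest difference between the libraries. The gene spans chr1:164437109-164458355 on the minus strand with 6 exons over 21247 bp (ENSMUSG00000026576.12). Replicate 1 had 2 distal peaks in its window and replicate 2 had 23, which is 4.85 and 55.8 per 100 kb against medians of 1.73 and 3.18 over all genes. Atp1b1 ranked 4208th of 21884 genes in replicate 1 and 4th in replicate 2. The ratio of 11.5 was reached or passed by 6 of the 12347 genes with a distal peak in both libraries, Atp1b1 included. The median ratio over these genes was 1.25. By gain in the number of distal peaks, 61 of all genes equalled or passed Atp1b1, again with Atp1b1 included. With the same number of peaks taken from each library, the 73221 strongest, Atp1b1 had 2 and 3 distal peaks, so the difference rests on weak peaks of replicate 2.

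**Figure D2:**
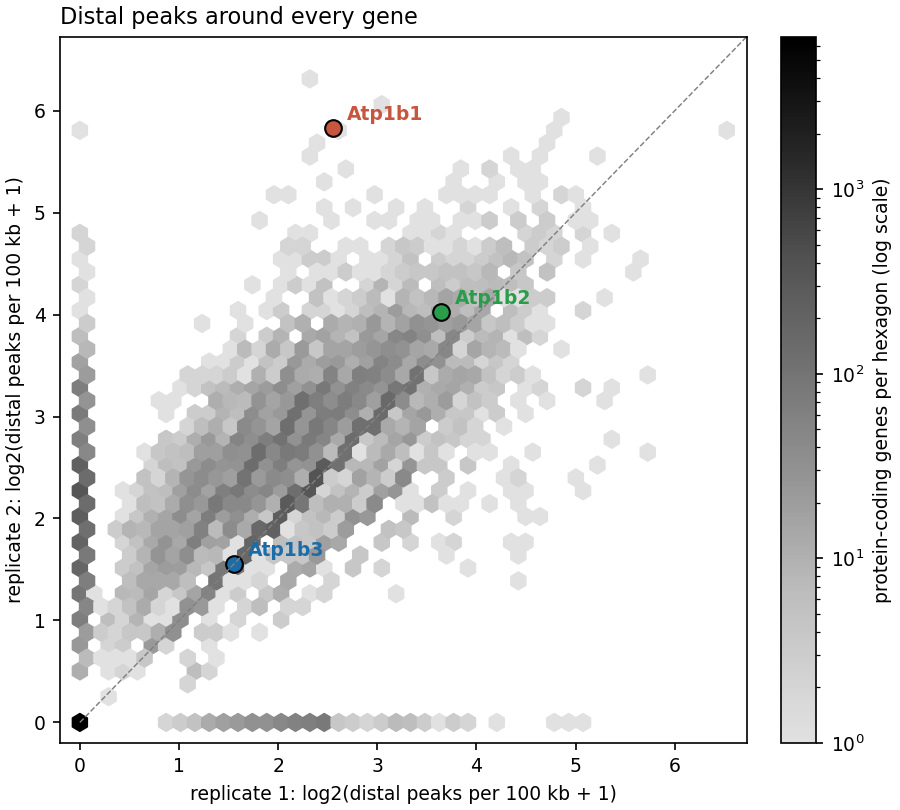
Distal peaks per 100 kb around every protein-coding gene, as log2 of the value plus 1, in replicate 1 (x axis) and replicate 2 (y axis), with hexagons shaded by the number of genes, the 3 beta subunit genes as coloured points and equality as a dashed line. Atp1b1 lies far above the line, Atp1b2 slightly above it and Atp1b3 on it.

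In the shorter lists, 21 distal peaks of replicate 2 had no partner in replicate 1. Their signals lay between 0.300 and 0.934, with a median of 0.414. The median peak among them stood above 11.4% of the peaks of its own library, and 10 of the 21 fell below its 10th percentile of signal, 0.394. Of the 21 peaks, 15 touched the gene body, with 12 in introns only and 3 reaching an exon. A further 4 lay downstream, where the window overlaps the neighbouring gene Nme7, and 2 lay upstream. Replicate 1 had a base listed at a false discovery rate of 0.05 or less in 1 of these 21 peaks. That peak, the strongest of them at 0.934, overlapped a peak of 1.13 in the longer list of replicate 1. Peaks as weak as 0.414 were also rarer in replicate 1, 2.46% of its shorter list against 11.9% in replicate 2. In the longer lists they made up 17.3% in replicate 1 and 32.0% in replicate 2. There the Atp1b1 window held 3 distal peaks in replicate 1 and 36 in replicate 2. Whether the 20 other regions were closed in replicate 1 or lay under its limit of detection was not tested.

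The weak signal of replicate 2 ran in blocks along the gene and just upstream of it. Bases listed at a false discovery rate of 0.05 or less covered 5.47% of the Atp1b1 window in replicate 1 and 39.4% in replicate 2, where the medians over all genes were 2.51% and 3.75%. In the gene body beyond 4 kb from the TSS, replicate 1 had no listed base and no peak. In those 17246 bp replicate 2 had 6036 listed bases (35.0%), 13 peaks and 25 footprints. The listed bases of replicate 2 filled most of the stretch from 4 kb before the TSS to 6 kb after it. They were absent from 6 to 11 kb, and returned from 11 kb to past the 3′ end of the gene. In the 10 kb upstream flank they covered 33.4%, against 10.5% in replicate 1. Over the whole window, the listed share at Atp1b2 was 5.15% in replicate 1 and 11.4% in replicate 2, and at Atp1b3 it was 3.90% and 4.97%.

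**Figure D3:**
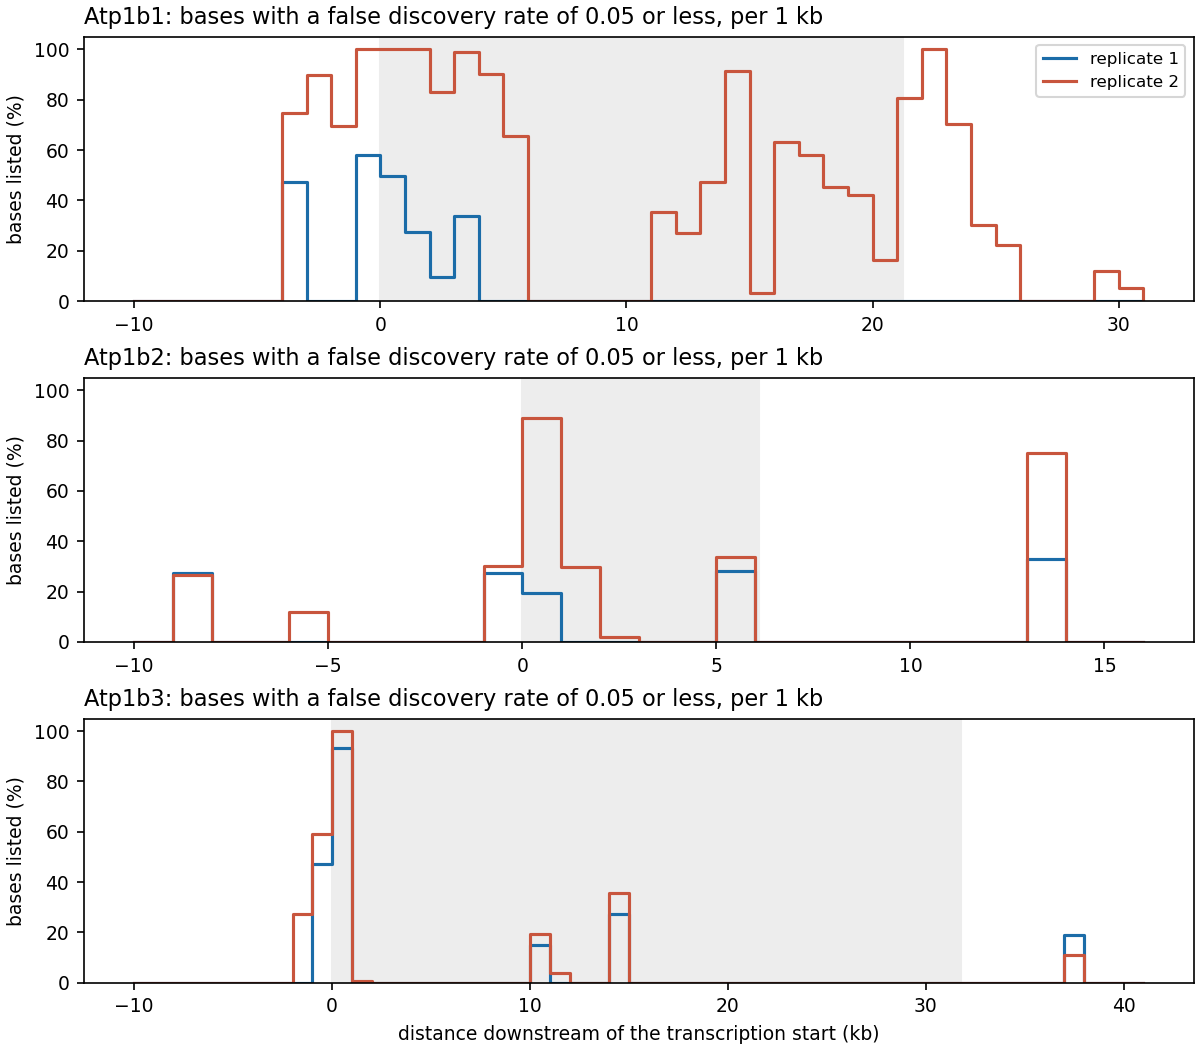
Percent of bases listed at a false discovery rate of 0.05 or less in 1 kb steps (y axis) against distance downstream of the TSS in kb (x axis) for the 3 genes, in replicate 1 (blue) and replicate 2 (red), with the gene body shaded. At Atp1b1 replicate 2 has listed bases from 4 kb before the TSS to 6 kb after it and again from 11 kb. Replicate 1 has none beyond 4 kb inside the gene.

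The peaks that both libraries shared at Atp1b1 had similar signals in each. The TSS peak at chr1:164458261-164458560 had the 3.19 and 2.54 given above. A second promoter peak at chr1:164458804-164458932 had 1.52 and 1.28 (1.40 ± 0.172, SD, n = 2). In intron 1, the peak at chr1:164454801-164455040 had 2.49 and 2.57 (2.53 ± 0.0578, SD, n = 2). All 8 bases of TGACGTCA, the cyclic AMP response element, lie there in footprints of both libraries. That motif stood in 0.623% of distal peaks of replicate 1, over 300 bases around each midpoint. Another peak in intron 1 at chr1:164456848-164456960 had 1.40 and 1.19 (1.29 ± 0.149, SD, n = 2). The strongest peak of the whole window was upstream, at chr1:164461801-164462060, with 3.50 and 4.03 (3.76 ± 0.377, SD, n = 2). It lies within 1 kb of the start of the long noncoding gene Gm32391, so it was counted neither as an Atp1b1 promoter peak nor as a distal peak. Not every peak of replicate 1 was shared. Its promoter peak at chr1:164457954-164458126 had 1.33, above 53.2% of the peaks of its library, and no partner in replicate 2 in either list. All 173 bases of that peak were nevertheless listed in replicate 2. Apart from distal peaks, replicate 2 had unshared peaks at chr1:164457441-164457860 (promoter, 0.514) and chr1:164461066-164461608 (0.607).

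**Figure D4:**
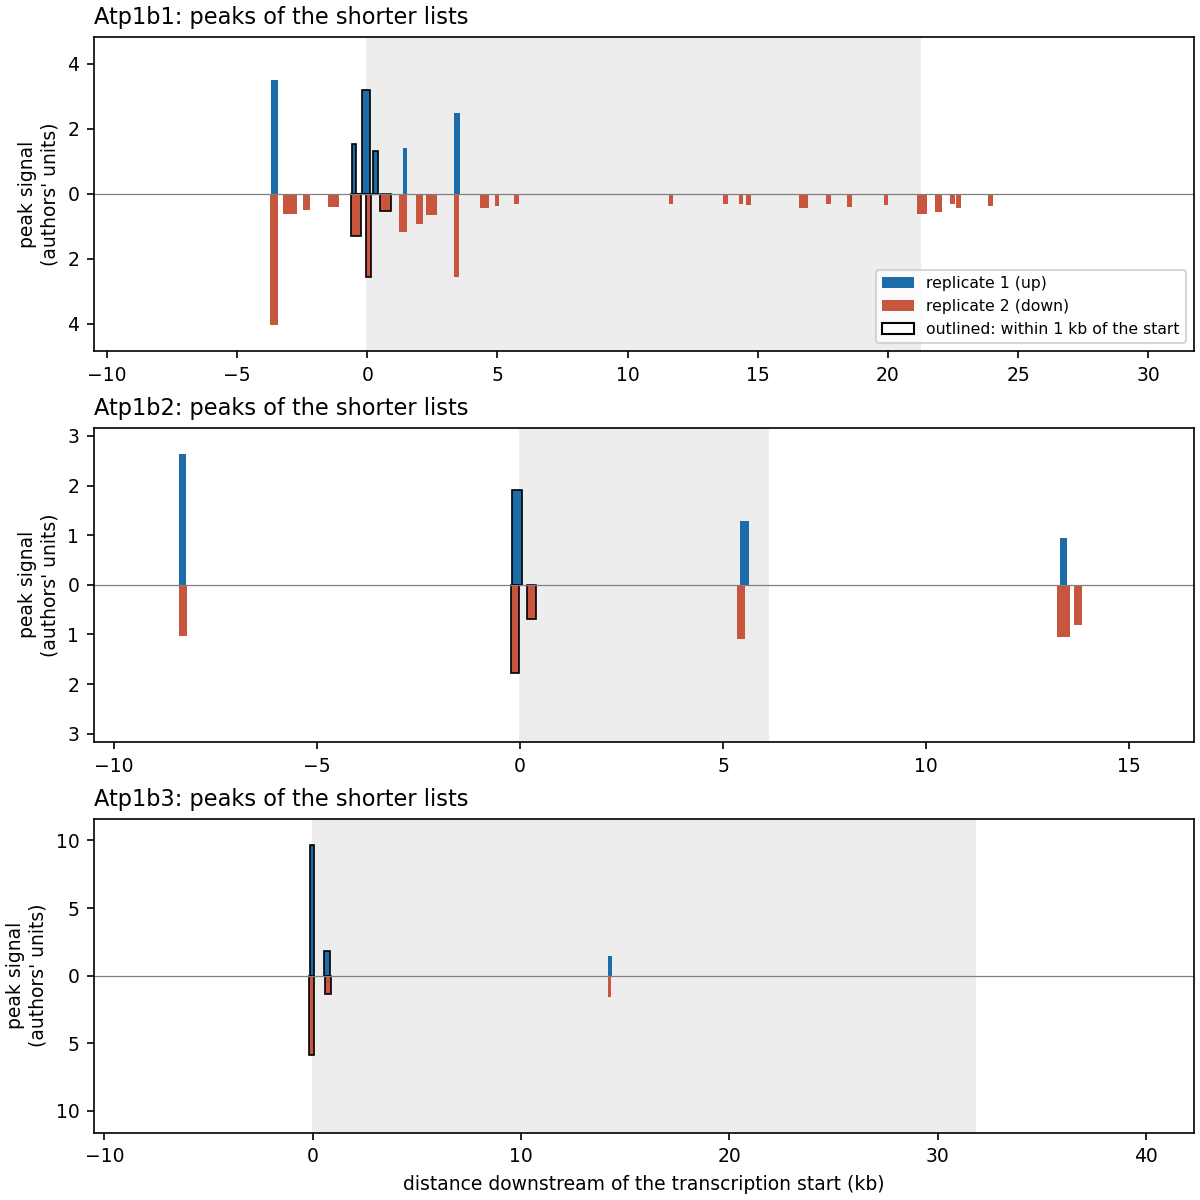
Signal of every peak (y axis, authors' units, replicate 1 upward and replicate 2 downward) against distance downstream of the TSS in kb (x axis) for the 3 genes, with the gene body shaded and promoter peaks outlined. The tallest bars are paired across the 0 line in all 3 genes, and the short unpaired bars of replicate 2 spread along Atp1b1 only among these genes.

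The Atp1b1 promoter is shown for comparison with the other starts, at chr1:164458356-164458522 on the minus strand, with capitals for bases in footprints of both libraries.
Atp1b1 promoter: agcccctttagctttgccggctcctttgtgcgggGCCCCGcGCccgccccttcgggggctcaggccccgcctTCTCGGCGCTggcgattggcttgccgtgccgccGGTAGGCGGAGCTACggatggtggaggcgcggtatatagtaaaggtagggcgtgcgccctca
It holds the letters TATATA, a variant of the TATA box, from 30 to 25 bases before the TSS. This variant was looked for after the sequence had been seen. It stands in 5.67% of promoter windows and in 1.45% of peaks of replicate 1 within 1 kb of a start. A CCAAT box, read as ATTGG on this strand and bound by the factor NF-Y, lies from 81 to 77 bases before the TSS and overlaps TTGGC, a partial recognition sequence of the NFI factors. A GC box, read as CCGCCC on this strand, lies at bases 44 to 49 of the sequence shown. None of these lay in a footprint of both libraries, and TATAAA is not in this window. Footprints of both libraries covered 33 of the 167 bases, fewer than the 78 of 158 at Atp1b3, the gene of stronger promoter signal. The RefSeq promoter windows of Atp1b1 and Atp1b3 are GC-rich, with 71% and 76% G and C, and their observed over expected CpG content is above that of 80.9% and 78.6% of promoters.

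Replicate 2 had more footprints than replicate 1 around all 3 genes, as it did over the whole genome, where the ratio was 1.46. Atp1b1 had 17 footprints in replicate 1 and 80 in replicate 2, Atp1b2 had 11 and 22, and Atp1b3 had 12 and 18, ratios of 4.71, 2 and 1.5. Only the Atp1b3 ratio, among these genes, was close to that of the whole libraries. Over all footprints, 51.6% of those of replicate 1 and 35.4% of those of replicate 2 overlapped one of the other library. Atp1b3 had 10 of its 12 footprints in replicate 1 overlapped by one of replicate 2, Atp1b2 had 7 of 11 and Atp1b1 had 10 of 17. Read from replicate 2, 10 of 18 were overlapped at Atp1b3, 7 of 22 at Atp1b2 and 11 of 80 at Atp1b1. Within 1 kb of the TSS, 8 of 8 footprints of replicate 1 were shared at Atp1b3, 5 of 7 at Atp1b1 and 2 of 2 at Atp1b2. Of all footprints within 1 kb of a protein-coding TSS, 57.3% were shared in that library. In replicate 2 the shared ones were 8 of 9 at Atp1b3, 6 of 16 at Atp1b1 and 2 of 6 at Atp1b2, against 50.1% of all such footprints. These counts are small and were not tested against the genome-wide shares.

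Genes of related function had promoter peaks at 19 of 30 loci in replicate 1, 20 in replicate 2 and 18 in both, in the shorter lists. These shares (63.3%, 66.7% and 60.0%) are near the 60.7%, 61.2% and 58.7% of all protein-coding genes, so the lists as a whole give no result of their own. In the longer lists 24 of 30 had one in each library, where 65.0% and 66.0% of all genes did. The other beta subunits, Atp1b4 and the gastric proton pump subunit Atp4b, had none in either library or list. Of 7 FXYD genes, whose small membrane proteins tune the pump, 2 had a promoter peak in replicate 1 and 3 in replicate 2 in the shorter lists, and 5 in each in the longer. Fxyd7 had 2.01 and 1.15, Fxyd6 had 0.746 and 0.761, and Fxyd3 had 1.00 in the shorter list of replicate 2 only. Fxyd1, Fxyd2, Fxyd4 and Fxyd5 had none there, but the longer lists held peaks in both libraries at Fxyd1 (0.653 and 0.567), Fxyd3 (0.779 and 1.00) and Fxyd5 (0.752 and 0.520). Of 4 genes for sodium pump interacting proteins 3 had a peak in both libraries, led by Nkain2 (1.89 and 2.00) and Nkain3 (1.81 and 1.45), and Nkain1 had peaks in the longer lists only (0.759 and 0.541).

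Among 10 carriers that run on the sodium gradient, 9 had a promoter peak in each library and 8 in both in the shorter lists, and all 10 in the longer lists, with the shares of all genes as given above. The calcium exchanger Slc8a2 had 3.82 and 3.68. The glial glutamate transporter Slc1a3 had a peak in the shorter list of replicate 2 only (0.741), and the GABA transporter Slc6a11 in that of replicate 1 only (0.706). In the longer lists both had one in each library, Slc1a3 at 0.534 in replicate 1 and Slc6a11 at 0.494 in replicate 2. Of 7 calcium pumps of the same P-type family, 5 had a peak in both libraries in either list, with Atp2b4 at 6.22 and 4.48 and Atp2b2 at 5.79 and 5.67. Atp2a1 and Atp2a3 had none in any list. In each library the promoter signal of Atp1b3 was above that of all 30 of these genes.

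The genes most like each beta subunit gene were taken as those nearest in distal peaks per 100 kb over the 2 libraries, as distance on the log2 scale with 1 added. Nearest to Atp1b1 were Olfr90 (4.06 and 48.7, distance 0.28), Gabbr1 (4.07 and 46.8, distance 0.32) and Igsf8 (5.12 and 42.2, distance 0.40). Olfr90 and Gabbr1 are neighbours whose windows can share peaks. Nearest to Atp1b2 were Gdf2, Fbxl22 and 1810062G17Rik, each with 3 and 4 distal peaks. Nearest to Atp1b3 were Fam193b and Ptpa, with 1 and 1, and Polq, with 2 and 2 in a longer window. With 2 libraries this likeness is a description only.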

How the data were processed

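DNase-seq peaks, footprints and per-base values of 2 libraries of 1 group were used, each called by the authors in that library alone on mm10, per the deposited notes. Aligner, callers, versions and thresholds were not given in the sources used here. Peak signal as deposited by the authors is 1 value per peak with unstated scaling. The deposited footprint score was constant and unused. The per-base q-values deposited by the authors (false discovery rates) were listed up to 0.05. Counts around 21884 protein-coding genes (GENCODE M21, basic) were made with python 3.11.15, numpy 2.4.6 and pandas 2.3.3 and drawn with matplotlib 3.10.9. The shorter peak list was the main list. Peaks sharing 1 bp were called shared. Gene windows extended 10 kb, and like genes used log2 of distal peaks per 100 kb plus 1. The counting code was tested on simulated data. Sequences came from RefSeq on GRCm38.p6. All members were named, with the 2 strongest genes of each list (1 is not reported here), those without a promoter peak or with one in a single library, and the 3 most like genes. Members and lists were chosen with earlier results of these data known. With 1 group and selected members, no test was made. Alternatives covered the peak list, window, promoter distance, overlap, false discovery rate and leaving out each library.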

Additional observations from a re-analysis of the deposited data

How the results depend on the processing

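No paired analysis was possible because the study has 1 group. Of 39 alternatives other than leaving out a library, 19 kept their value within the spread between the libraries, or for counts within 1.5 times, and 20 did not; the cause was not tested. The promoter signals of all 3 genes stayed the same with the longer list and at 500 bp or 2 kb. These strongest peaks lay over the TSS or within 32 bp of it, so the 500 bp setting could not change them. Mean distal peaks per library at Atp1b1 (12.5) became 19.5 with the longer list and 2.5 with either equal numbers of strongest peaks or peaks above the median signal. Those at Atp1b2 (3.5) became 1 in the gene body alone and 8.5 with 50 kb on each side, and those at Atp1b3 (1) became 3.5 with the longer list and also with 50 kb. With overlap of at least 50% of both peaks, shared distal peaks fell to 1 at Atp1b1 (from 2) and to 1 at Atp1b2 (from 3). Footprints inside peaks averaged 30.5 at Atp1b1 (48.5 in all) and 6.5 at Atp1b3 (15 in all). Gene bodies alone held 24 footprints at Atp1b1, 7.5 at Atp1b2 (16.5 in all) and 8.5 at Atp1b3. Listed bases (9245, 2164 and 2298) became 5890, 1252 and 1530 at a false discovery rate of 0.001 or less, and 5532, 1124 and 1480 in the gene bodies alone. Leaving out each library in turn gave 2 to 23 distal peaks, 17 to 80 footprints and 2258 to 16232 listed bases at Atp1b1, and 1350 to 2978 listed bases at Atp1b2. Sequencing depth is unknown, and its effect on the counts of weak peaks was not tested.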

Other observations

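In replicate 2 a pair of peaks in the Atp1b1 window stood in opposite order by signal and by best false discovery rate. The upstream peak near Gm32391 had a signal of 4.03 and a best value of 4.01e-12, while the TSS peak had 2.54 and 2.23e-56. In replicate 1 the same peaks had 1.05e-13 and 1.10e-13. The cause was not tested.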
